A study of Mus musculus with 10 samples.

Results

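Genes of MHC class I presentation were followed in the cortex of amyloid-bearing mice labelled with and without neuronal Idol. They were B2m, H2-K1, H2-D1, H2-T23, Tap1, Tap2, Tapbp, Erap1 and Nlrc5. These were chosen by symbol, through the GENCODE annotation, from the gene identifiers of the deposited count tables, and are 9 of 53700 identifiers. None of the 9 passed the test between the groups, and the most counted of them, B2m, was 20.1% below its 5XFAD level in libraries labelled 5XFAD;Neu cKO (95% interval 6.18% to 31.9%, adjusted p = 0.402, edgeR). That difference rested largely on 1 library.

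The experiment compared bulk RNA-seq of cortices from 10 female mice aged 4 months, 5 labelled 5XFAD and 5 labelled 5XFAD;Neu cKO. All 10 mice carried the 5XFAD transgenes, which cause amyloid to build up in the brain and serve as a model of Alzheimer's disease. In 5XFAD;Neu cKO mice a Camk2a-Cre transgene, which is active mainly in forebrain excitatory neurons, deletes floxed Idol, the gene for a ubiquitin ligase that degrades lipoprotein receptors. The 5XFAD group carries the label WT where the other has cKO, and was made up of littermate controls by the study's methods. Reads of these libraries come from the 3′ ends of transcripts, so a count does not grow with transcript length and levels can be set side by side between genes. Between 4320504 and 7466192 reads were counted per library. Values are CPM, counts scaled by the size of the library after its adjustment by TMM normalization. Changes are log2 fold changes of 5XFAD;Neu cKO against 5XFAD from the quasi-likelihood test of edgeR, with p-values adjusted by Benjamini-Hochberg over 19268 genes and a threshold of 0.05. Slc17a7, a marker of cortical excitatory neurons, was at 186 ± 18.6 CPM in 5XFAD and 178 ± 3.83 CPM in 5XFAD;Neu cKO (SD, n = 5). The gene of IDOL itself, Mylip, did not differ in the direction of the labels (log2 fold change 0.39, SE 0.25, adjusted p = 0.777, edgeR), and which exons the floxed allele removes is not given in the sources used here, so these 3′ reads may not see the deletion. The groups are therefore named by their labels.

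Class I molecules show short peptides from inside the cell to CD8 T cells. A heavy chain, encoded by H2-K1 or H2-D1 for the classical molecules and by H2-T23 for the nonclassical molecule Qa-1, pairs with the invariant light chain β2-microglobulin, encoded by B2m. The peptides are cut by the proteasome, carried into the endoplasmic reticulum by the transporter TAP1-TAP2, trimmed by the aminopeptidase ERAP1 and loaded with the help of tapasin, the product of Tapbp. NLRC5 is the transactivator of the class I genes. In the brain, microglia and endothelial cells are known to express class I genes at higher levels than neurons, and interferons raise them.

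NLRC5 reaches its target genes through the RFX, CREB and NF-Y complexes on the X and Y boxes of the promoter, and classical heavy chain genes also carry a site for NF-κB and an interferon response element. Promoter sequences from RefSeq (table of GRCm38.p6) were found for 7 of the 9 genes, with none for Tap2 and Nlrc5. H2-K1 had 2 entries there, and its matches and sequences below are those of the last listed only. The 250 bases before each start were searched on both strands for TGACG (the core of X2), ATTGG (the inverted CCAAT of Y), GGGGATTCC (κB) and GAANNGAAA (interferon response). TGACG followed by ATTGG after 15 to 25 bases was found for B2m, H2-K1 and H2-D1, and in 0.381% of all 32851 promoters of the table. Among nonclassical heavy chain genes outside the 9, the pair was also found for H2-M3, and not for H2-T22 or H2-Q4. H2-K1 and H2-D1 also held GGGGATTCC, found in 0.213% of promoters, and GAANNGAAA, found in 6.31%, and from the κB letters to the Y letters they shared 89 of 100 bases. These letters are shown because they are what the light chain and both classical heavy chain genes have in common. Capitals mark the matched letters, read 5′ to 3′ on the strand of the gene, and positions are those of an exact match in GRCm39: chr2:121978090-121978119 (plus strand) for B2m, chr17:34219333-34219362 (minus) for H2-K1 and chr17:35481969-35481998 (plus) for H2-D1.
B2m, X2 to Y: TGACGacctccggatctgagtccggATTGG
H2-K1, X2 to Y: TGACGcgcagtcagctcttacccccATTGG
H2-D1, X2 to Y: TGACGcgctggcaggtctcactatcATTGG
The stretch from the κB letters to the interferon response letters, which lie in reverse in both genes, is at chr17:34219403-34219432 for H2-K1 and chr17:35481899-35481928 for H2-D1.
H2-K1, κB to interferon response: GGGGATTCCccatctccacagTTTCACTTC
H2-D1, κB to interferon response: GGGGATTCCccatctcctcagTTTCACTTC
The paired X2 and Y letters were not found at that spacing for H2-T23, Tap1, Tapbp or Erap1. A match is a run of letters and not a measured binding site.

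The 9 genes spanned a wide range of levels. B2m was the highest at 118 ± 29.0 CPM (SD, n = 10) and above every other member in 10 of 10 libraries, taking 51.3% to 63.7% of the summed level of the 9. H2-D1 followed at 31.9 ± 6.68 CPM, Tapbp at 26.1 ± 4.88 CPM and H2-K1 at 18.8 ± 4.45 CPM (SD, n = 10 each). The ranges of these neighbours overlapped, with H2-D1 above Tapbp in 8 of 10 libraries and Tapbp above H2-K1 in 9 of 10. Erap1 (5.37 ± 2.00 CPM) and Tap2 (4.24 ± 1.34 CPM) could not be ordered, each being the higher in 5 of 10 libraries. Tap1 at 1.93 ± 1.19 CPM lay below Tap2 in 10 of 10 libraries. H2-T23 (0.75 ± 0.916 CPM) and Nlrc5 (0.448 ± 0.558 CPM) had means close to the level that 3 counts give, 0.394 to 0.704 CPM by library.

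**Figure D1:**
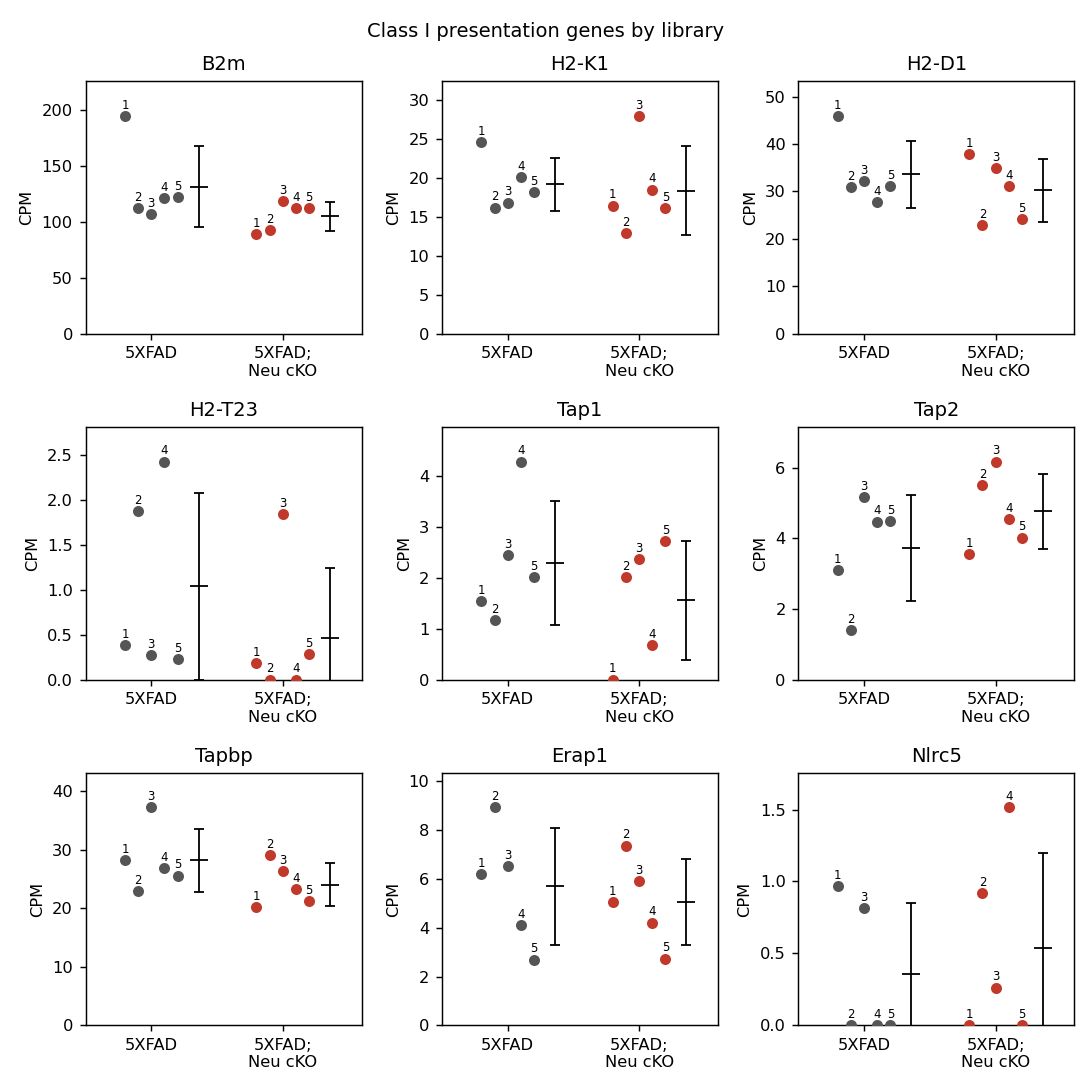
Level in CPM (vertical axes, each from 0) of the 9 class I presentation genes in 5 libraries labelled 5XFAD (grey) and 5 labelled 5XFAD;Neu cKO (red), with replicate numbers, means and SD (n = 5). The groups overlapped for all 9 genes, and replicate 1 of 5XFAD, at 195 CPM of B2m and 45.9 CPM of H2-D1, was the highest library for both.

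B2m, the light chain gene (ENSMUSG00000060802, GRCm39 chr2:121977957-121983594), was measured at 195, 113, 107, 122 and 122 CPM in 5XFAD replicates 1 to 5, and at 89.4, 92.7, 118, 113 and 112 CPM in 5XFAD;Neu cKO replicates 1 to 5. Replicate 1 of 5XFAD stood above the other 9 libraries, while the other 4 of that group lay between 107 and 122 CPM and overlapped with the 5XFAD;Neu cKO group. The group means were 132 ± 35.8 and 105 ± 13 CPM (SD, n = 5), a log2 fold change of -0.32 (95% interval -0.55 to -0.09). It had the smallest p of the 9 (unadjusted p = 0.00696, adjusted p = 0.402, edgeR), and DESeq2 gave an adjusted p of 0.295. Relabelling the mean log2 CPM in every way (exact permutation test, two-sided) gave p = 0.111, the smallest possible p being 0.0079. Without replicate 1 of 5XFAD the log2 fold change of B2m was -0.14 (unadjusted p = 0.199, adjusted p = 0.86, edgeR).

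H2-D1 and H2-K1 encode the classical heavy chains and stand on chromosome 17 of GRCm39, H2-K1 (ENSMUSG00000061232) at chr17:34214987-34219321 and H2-D1 (ENSMUSG00000073411) at chr17:35481691-35486475. H2-D1 was at 45.9, 31.0, 32.2, 27.8 and 31.2 CPM in 5XFAD replicates 1 to 5 and at 38.0, 23, 34.9, 31.1 and 24.1 CPM in 5XFAD;Neu cKO replicates 1 to 5. Replicate 1 of 5XFAD was again the highest, and 2 of the 5XFAD;Neu cKO libraries were the lowest of the 10. The log2 fold change of H2-D1 was -0.15 (95% interval -0.48 to 0.17, adjusted p = 0.91, edgeR), and -0.02 without replicate 1 of 5XFAD.

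H2-K1 was at 24.6, 16.2, 16.8, 20.1 and 18.2 CPM in 5XFAD replicates 1 to 5 and at 16.5, 12.9, 28.0, 18.5 and 16.1 CPM in 5XFAD;Neu cKO replicates 1 to 5. The highest and the lowest library were both of the 5XFAD;Neu cKO group. Its log2 fold change was -0.06 (95% interval -0.47 to 0.36, adjusted p = 0.985, edgeR), so folds from 0.724 to 1.28 lay inside the interval. The value turned to 0.05 when replicate 1 of 5XFAD was left out and to 0.05 when replicate 2 of 5XFAD;Neu cKO was left out, and without replicate 3 of 5XFAD;Neu cKO it was -0.26.

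H2-T23 (ENSMUSG00000067212, chr17:36340229-36345571), the Qa-1 heavy chain gene, was hardly counted, with 2, 8, 2, 13 and 1 reads in 5XFAD replicates 1 to 5 and 1, 0, 14, 0 and 2 reads in the replicates of 5XFAD;Neu cKO. A single library of 5XFAD;Neu cKO and 2 of 5XFAD held most of its reads. Its log2 fold change of -1.07 had an interval from -3.54 to 1.33, and a difference was not detectable at this depth. Of the 76-base stretches in the last 300 bases of its transcript, 37.3% also occur in transcripts of other genes, against 0% for each of the other 8 genes.

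Class I heavy chain genes are near-identical in places, and the counting kept reads with a single place only. The counts of 20 listed heavy chain genes of the H2 region, which are not a full set, were also added up as 1 feature. H2-K1 and H2-D1 held 66.6% to 87.3% of it. This sum cannot bring back the reads that the counting left out. The summed level was 55.6 to 80.8 CPM in 5XFAD and 52.6 to 78.1 CPM in 5XFAD;Neu cKO. The log2 fold change was -0.02 (95% interval -0.27 to 0.23, adjusted p = 0.99, edgeR). Of the 17 listed heavy chain genes beside the 3 members, 8 had enough reads to be tested, 1 was lower and 7 were higher. None passed the test (0 at an unadjusted p under 0.05 by edgeR), while DESeq2 gave no adjusted p for any of the 8. The most counted of them was H2-T22, a nonclassical heavy chain gene, at 6.94 ± 3.35 CPM in 5XFAD and 9.85 ± 2.11 CPM in 5XFAD;Neu cKO (SD, n = 5), a log2 fold change of 0.49 (adjusted p = 0.778, edgeR). Of its 76-base stretches near the 3′ end, 24.9% are shared with H2-T10. The other tested heavy chain genes beside the members had only 12 to 60 reads each over all libraries, so their directions are uncertain. The H2 region is polymorphic between mouse strains, and the haplotype of each mouse was not tested.

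Peptide transport, trimming and loading were carried by Tap1, Tap2, Erap1 and Tapbp. Tapbp (ENSMUSG00000024308, chr17:34134873-34148267) was at 28.3, 23, 37.2, 26.8 and 25.6 CPM in 5XFAD replicates 1 to 5 and at 20.2, 29.1, 26.4, 23.2 and 21.3 CPM in 5XFAD;Neu cKO replicates 1 to 5. The lowest 2 libraries were of the 5XFAD;Neu cKO group and the highest was replicate 3 of 5XFAD, with overlap between them. The log2 fold change was -0.24 (95% interval -0.58 to 0.10, adjusted p = 0.829, edgeR).

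The values of the 2 subunits of the peptide transporter lay on opposite sides of 0, and neither passed the test. Tap1 (ENSMUSG00000037321, chr17:34405996-34416199) had counts of 8, 5, 18, 23 and 9 in 5XFAD replicates 1 to 5 and of 0, 11, 18, 4 and 19 in those of 5XFAD;Neu cKO. Tap2 (ENSMUSG00000024339, chr17:34422501-34435829) had counts of 16, 6, 38, 24 and 20 and of 19, 30, 47, 27 and 28 in the same order. The groups overlapped for both genes. Their log2 fold changes were -0.54 (95% interval -1.93 to 0.83) for Tap1 and 0.34 (-0.50 to 1.19) for Tap2, and the difference between them was not tested. Erap1 (ENSMUSG00000021583, chr13:74787687-74841320) had a log2 fold change of -0.18 (95% interval -0.94 to 0.59), with 2.69 to 8.92 CPM in 5XFAD and 2.73 to 7.36 CPM in 5XFAD;Neu cKO. The 3′ end of Erap1 overlaps exons of Cast on the opposite strand over 835 bases, and the strand setting of the counting is not given in the sources used here, so its count is uncertain.

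Nlrc5 (ENSMUSG00000074151, chr8:95160984-95253900), the transactivator gene, had counts of 5, 0, 6, 0 and 0 in 5XFAD replicates 1 to 5 and of 0, 5, 2, 9 and 0 in those of 5XFAD;Neu cKO. With no read in 5 of 10 libraries its log2 fold change of 0.51 had an interval from -2.45 to 3.52, which covers a fold from 0.183 to 11.5. A difference in Nlrc5 was not detectable at this depth.

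Counted together, 0 of the 9 genes passed the threshold by edgeR, where 0.218% of all genes tested did. DESeq2 gave an adjusted p for B2m, H2-D1 and Tapbp but not for the other 6, and none of the 3 passed, where 73 genes did, 1.25% of the 5820 given an adjusted p and 0.379% of all. At an unadjusted p under 0.05 stood 1 of 9, B2m, against 7.95% of all genes. The groups did not separate for any of the 9, and separated for 1.3% of all genes. The level was lower in 5XFAD;Neu cKO for 7 of 9 and higher for Tap2 and Nlrc5, with a median log2 fold change of -0.18, beside -0.001 for all genes tested. Without replicate 1 of 5XFAD, 6 of 9 were lower, 0 had an unadjusted p under 0.05 and the median was -0.14.

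**Figure D2:**
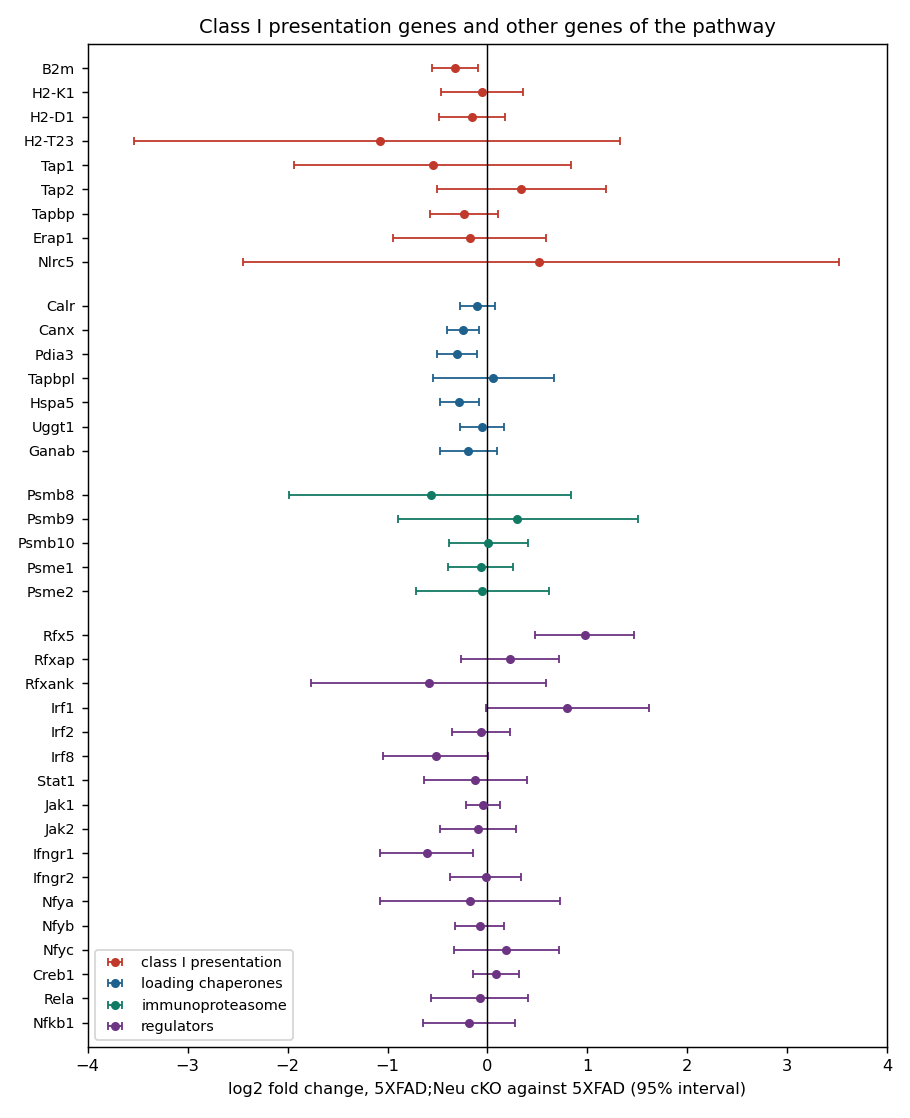
Log2 fold change of 5XFAD;Neu cKO against 5XFAD (horizontal axis) with its 95% interval for the 9 class I presentation genes (red), 7 loading chaperones (blue), 5 immunoproteasome genes (green) and 17 regulators (purple). The interval of B2m, -0.55 to -0.09, is the only one of the 9 that leaves out 0, and that of Rfx5 runs from 0.48 to 1.47.

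The balance between light and heavy chains was compared within each library, which is free of library size. The ratio of B2m to H2-K1 plus H2-D1 ran from 2.18 to 2.76 in 5XFAD and from 1.64 to 2.79 in 5XFAD;Neu cKO, a difference in mean log2 ratio of -0.17 (two-sided exact test over all relabellings, p = 0.333). The ratio of H2-K1 to H2-D1 ran from 0.523 to 0.725 and from 0.434 to 0.801, a difference of 0.06 (p = 0.714, same exact test). The immunoproteasome subunits Psmb8, Psmb9 and Psmb10, which interferon induces, were set against the constitutive subunits they replace, Psmb5, Psmb6 and Psmb7. That ratio was 0.186 to 0.293 in 5XFAD and 0.203 to 0.264 in 5XFAD;Neu cKO, a log2 difference of -0.05 (p = 0.706, same exact test). It mostly follows Psmb10, which had 482 reads in 5XFAD and 576 in 5XFAD;Neu cKO. Psmb8 had 56 and 48 reads, and Psmb9 had 54 and 82. Adjusted over these 3 ratios, every p was 0.714.

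The chaperones of the endoplasmic reticulum that fold heavy chains and form the loading complex were lower in 6 of 7 cases, with a median log2 fold change of -0.19. By edgeR none passed the test, and 3 stood at an unadjusted p under 0.05, where 7.95% of all genes tested did. By DESeq2 0 passed the threshold among the 6 with an adjusted p. Canx, which encodes calnexin and has the highest mean CPM of them, was at 362 to 443 CPM in 5XFAD and 304 to 356 CPM in 5XFAD;Neu cKO, so that the groups did not overlap. Its log2 fold change was -0.24 (95% interval -0.40 to -0.08, adjusted p = 0.332, edgeR). For Pdia3, the disulfide isomerase bound to tapasin, the log2 fold change was -0.31 (adjusted p = 0.310, edgeR), with 4 of 5 libraries labelled 5XFAD;Neu cKO below the whole 5XFAD group. Most of these chaperones serve many secreted and membrane proteins and are not particular to class I. Tapbpl, which encodes a protein related to tapasin, was the only gene of the 7 that was not lower (log2 fold change 0.06, adjusted p = 0.99, edgeR).

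Among the 5 immunoproteasome genes, Psme1, an activator subunit, was the most counted at 27.0 ± 1.35 CPM in 5XFAD and 25.8 ± 3.95 CPM in 5XFAD;Neu cKO (SD, n = 5), a log2 fold change of -0.07 (adjusted p = 0.975, edgeR). The largest difference in the list was that of Psmb8, -0.57 (95% interval -1.99 to 0.83), and it had its highest count, 26, in replicate 1 of 5XFAD, where the other libraries had 2 to 18. Of the 5 genes 3 were lower, and 0 passed the test by edgeR (0 at an unadjusted p under 0.05). Psme1 was the only one given an adjusted p by DESeq2 and did not pass. Of the 5 trimming peptidases beside Erap1, 4 were higher, with a median log2 fold change of 0.08 and 0 past the test by edgeR (0 at an unadjusted p under 0.05) or DESeq2.

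Of the 17 genes that regulate class I transcription, 12 were lower, and the median log2 fold change was -0.08. By edgeR 0 passed the test, and 2 stood at an unadjusted p under 0.05, where 7.95% of all genes tested did. By DESeq2 0 passed among the 5 with an adjusted p. Rfx5, which encodes the DNA-binding subunit of RFX at the X box of class I and class II promoters, was nearest to the threshold. Replicates 1 to 5 of 5XFAD had 31, 32, 62, 42 and 55 reads of it, and 91, 89, 96, 126 and 107 were counted in those of 5XFAD;Neu cKO. In CPM the groups did not overlap, 6.01 to 12.3 in 5XFAD and 12.6 to 21.2 in 5XFAD;Neu cKO. The log2 fold change was 0.97 (95% interval 0.48 to 1.47), with an adjusted p of 0.0763 by edgeR, and DESeq2 gave no adjusted p. The adjusted p was 0.0394 with no filter on low counts and 0.0285 without replicate 5 of 5XFAD, and reached 0.328 among the other libraries left out. Its partners Rfxap and Rfxank had log2 fold changes of 0.23 and -0.58 (adjusted p = 0.914 and 0.901, edgeR). Ifngr1, a chain of the interferon γ receptor, was at -0.61 (adjusted p = 0.445, edgeR), and Irf1, an interferon-induced activator of class I genes, at 0.80 (adjusted p = 0.644, edgeR).

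**Figure D3:**
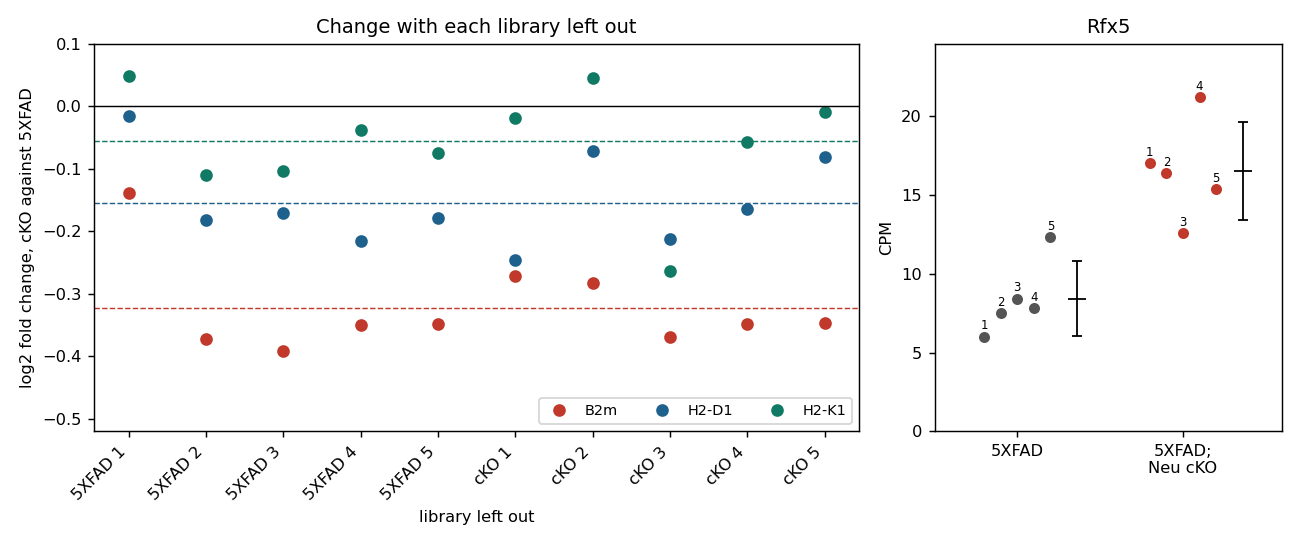
Left, the log2 fold change (vertical axis) of B2m, H2-D1 and H2-K1 with each of the 10 libraries left out, dashed lines giving the value with all libraries. Right, Rfx5 in CPM by library with means and SD (n = 5). Without replicate 1 of 5XFAD, B2m moved from -0.32 to -0.14, H2-D1 from -0.15 to -0.02 and H2-K1 from -0.06 to 0.05.

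Cell type markers were read beside these genes, since in bulk tissue fewer cells of a type and less RNA per cell cannot be told apart. The 19 microglia markers found summed to 562 to 817 CPM in 5XFAD and 382 to 486 CPM in 5XFAD;Neu cKO, with no overlap. Each of the 19 had a negative log2 fold change, the median being -0.65. By edgeR 7 passed the threshold, where 0.218% of all genes tested did. By DESeq2 6 passed among the 9 with an adjusted p. Cx3cr1, a microglial receptor, was among the 7 (log2 fold change -0.51, adjusted p = 0.0232, edgeR). The markers did not fall evenly, from -1.21 for C1qb (adjusted p = 0.000407, edgeR) to -0.02 for Sall1 (adjusted p = 0.997, edgeR). P2ry12 (-0.305, adjusted p = 0.744, edgeR) and Aif1 (-0.256, adjusted p = 0.951, edgeR) did not pass either. The ratio of B2m to the summed microglia markers was 0.140 to 0.238 in 5XFAD and 0.191 to 0.293 in 5XFAD;Neu cKO, and that of H2-K1 plus H2-D1 was 0.0584 to 0.0873 and 0.0739 to 0.141. Both ratios overlapped between the groups, with the higher medians in 5XFAD;Neu cKO. The sum below each ratio gives most weight to the most counted markers. The highest was Ctss, at 154 ± 27.2 CPM in 5XFAD and 81.7 ± 13.6 CPM in 5XFAD;Neu cKO (SD, n = 5). Its log2 fold change was -0.91 (adjusted p = 5.24e-07, edgeR), so the ratios are not levels per microglial cell. The part of the microglia markers in the levels of B2m was not tested.

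The 12 endothelial markers summed to 318 to 382 CPM in 5XFAD and 331 to 377 CPM in 5XFAD;Neu cKO, a ratio of means of 1.01, with 0 past the threshold by edgeR (0 at an unadjusted p under 0.05) and 0 of the 6 with an adjusted p by DESeq2. Replicate 1 of 5XFAD, the library with the highest B2m, also had the highest sum of microglia markers, 817 CPM, and of endothelial markers, 382 CPM. Replicate 2 of 5XFAD was close to it in both sums, at 807 and 368 CPM, with 113 CPM of B2m. The 5 red blood cell genes summed to 6.34 to 51.4 CPM in 5XFAD and 46.9 to 211 CPM in 5XFAD;Neu cKO, with Hba-a1 and Hbb-bs past the threshold by edgeR. DESeq2 gave Hbb-bs an adjusted p of 0.153 and Hba-a1 none. Of 10 markers of T cells, which read class I molecules, only Cd4, Trac and Lck had enough reads to be tested, with 189, 44 and 31 reads in total over the 10 libraries, and none passed the test by edgeR (0 at an unadjusted p under 0.05). They summed to 3.53 to 7.17 CPM in 5XFAD and 2.63 to 7.17 CPM in 5XFAD;Neu cKO. Cd3d, Cd3g, Cd2 and Nkg7 were at 0 in every library, Cd3e had 1 read in total and Cd8a 3.

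Oligodendrocyte markers were lower in 10 of 10 cases, with a median log2 fold change of -0.28. At an unadjusted p under 0.05 by edgeR stood 7.95% of all genes tested and 6 of these markers. Their sums overlapped, 2120 to 3110 CPM in 5XFAD and 1880 to 2950 CPM in 5XFAD;Neu cKO. Mal, which encodes a myelin protein, passed the threshold (log2 fold change -0.48, adjusted p = 0.0427, edgeR). Of 10 astrocyte markers 8 were lower, with a median of -0.08, and Gfap, the intermediate filament gene of reactive astrocytes, passed the threshold, at 33.7 to 59.1 CPM in 5XFAD and 18.2 to 31.4 CPM in 5XFAD;Neu cKO (log2 fold change -0.88, adjusted p = 0.00202, edgeR). Mal and Gfap also passed by DESeq2. The part of these cells in the class I and chaperone values was not tested.

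**Figure D4:**
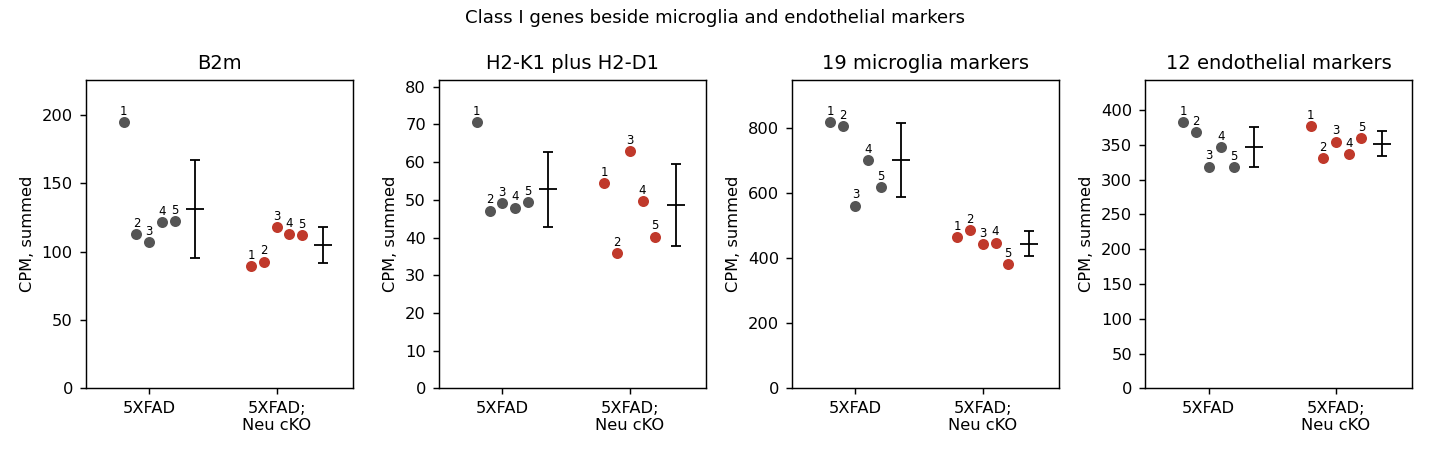
Summed CPM (vertical axes, each from 0) of B2m, of H2-K1 plus H2-D1, of 19 microglia markers and of 12 endothelial markers in 5 libraries labelled 5XFAD (grey) and 5 labelled 5XFAD;Neu cKO (red), with replicate numbers, means and SD (n = 5). The microglia sums do not overlap, 562 to 817 against 382 to 486, and the other 3 measures do.

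Across the 10 libraries, B2m and H2-K1 varied together with a Pearson r of 0.674 (permutation p = 0.0375, adjusted p = 0.115 over 6 relations) and a Spearman rho of 0.697 (permutation p = 0.0304, adjusted p = 0.182). Without the 2 libraries farthest from the median of B2m, r was 0.718. H2-K1 and H2-D1 gave an r of 0.655 (permutation p = 0.0393, adjusted p = 0.115) and a rho of 0.612 (permutation p = 0.0684, adjusted p = 0.205), with r at 0.441 without the farthest 2. B2m and the summed microglia markers gave an r of 0.585 (permutation p = 0.0576, adjusted p = 0.115) and a rho of 0.527 (permutation p = 0.122, adjusted p = 0.244), with r at 0.265 without the farthest 2. Those 2 were picked as the farthest in B2m, which narrows its range, so the lower r does not decide what the relation rested on. The other 3 relations had a lower r over all 10 libraries. The r was 0.571 (permutation p = 0.0925) and rho 0.248 (permutation p = 0.49) for B2m and H2-D1, r was 0.403 (permutation p = 0.252) and rho 0.188 (permutation p = 0.607) for H2-D1 and the microglia markers, and r was 0.198 (permutation p = 0.581) and rho 0.176 (permutation p = 0.634) for H2-K1 and the microglia markers. Without the farthest 2 libraries their r values were 0.576, 0.0209 and 0.308. After taking each library's distance from its own group mean, the r values were 0.702 for B2m and H2-K1, 0.645 for H2-K1 and H2-D1 and 0.322 for B2m and the microglia markers. No relation passed the adjustment. Among 11064 genes, the log2 CPM most like that of H2-D1 over the 10 libraries was that of Rai14 (r = 0.957), most like H2-K1 that of Scaf11 (r = 0.913) and most like B2m that of Gm47017 (r = 0.886), none of them a gene of the class I pathway. Each is the highest of 11064 values over 10 libraries, where a high r can also arise by chance, and was not tested.

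The interferon-induced genes and class II genes were read for contrast. Of 21 type I interferon response genes tested, 12 were lower and 0 passed the threshold by edgeR (1 at an unadjusted p under 0.05), with a median log2 fold change of -0.12. Their sum was 97.9 to 146 CPM in 5XFAD and 89.3 to 114 CPM in 5XFAD;Neu cKO. Of 8 MHC class II genes tested, 5 were lower and 0 passed the threshold by edgeR (1 at an unadjusted p under 0.05). At that unadjusted p stood 7.95% of all genes tested. DESeq2 gave no adjusted p for any gene of these 2 lists. H2-Eb1, a class II chain gene named after its values were seen, had 12 to 19 reads in 5XFAD and 0 to 14 in 5XFAD;Neu cKO (log2 fold change -2.03, adjusted p = 0.390, edgeR). In CPM its groups did not overlap.

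Of the 9 genes, 6 lie in the H2 region of chromosome 17, where 122 genes were tested between Tapbp and the nonclassical genes (chr17:34134873-37585384). Of these, 58 were lower and 64 higher, and the median log2 fold change was 0.02. By edgeR 0 passed the threshold, and 10, or 8.2%, stood at an unadjusted p under 0.05, beside 7.95% of all genes tested. The groups separated for 2 of the 122, or 1.64%, beside 1.3% of all genes tested. The mice also differed at a mitochondrial gene: the share of reads on mt-Nd3 out of those on mt-Nd3 and its copy Gm28438 was 0.713% to 2.39% in 5 libraries and 88.1% to 99.5% in the other 5, and the high share was found in 1 library labelled 5XFAD and in 4 labelled 5XFAD;Neu cKO. The split thus followed the group labels in large part and cannot be fully told apart from them. With this split as a covariate, added after seeing the data, 0 of the 9 passed the threshold, B2m was at -0.31 (adjusted p = 0.546, edgeR), H2-D1 at -0.26, Tapbp at -0.02 and Tap2 at 0.91.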

How the data were processed

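Cortical RNA of 10 mice was sequenced by the authors with a QuantSeq 3′ FWD kit in 76-base single reads, aligned to GRCm39 with STAR and counted per gene with HTSeq (STAR 2.7.3a and HTSeq 0.9.1 in the submitters' processing notes). The deposited values are raw counts per gene and library. Reads on no gene (31.3% to 39.9% of those kept) and multiply aligned reads entered no library size or test.

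Counts were analysed in R 4.3.3 with edgeR 4.0.16 (TMM, estimateDisp, glmQLFit, glmQLFTest, with no term but group). As the authors did, genes were kept only where their total was above 10, which left 19268. The common biological coefficient of variation was 0.281. The authors used DESeq2, which is an alternative here (DESeq2 1.42.0), with adjusted p left out for genes of low counts by its own filter. Intervals are Wald intervals of the same fit and assume this spread. Ratios and single genes were compared by exact two-sided permutation tests over 252 relabellings. The levels of 3 counts cover counting error only. The fit was tested on simulated data. By the study's methods the controls were littermates, but the sources used here do not say which mice shared a litter. The mt-Nd3 split given above lay unevenly over the groups. The p-values measure the spread between these libraries.

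Other alternatives were the size factors of DESeq2, filterByExpr or no filter, robust estimation, removal of mitochondrial genes, a replicate block, every library dropped once, and class I heavy chain genes added up. The members and lists were chosen with earlier results of these data known. Of the members, all are named. Of the other lists, genes past the threshold, the most counted (by mean CPM), the largest changes and defining markers may be named, with the 5 genes most like each of B2m, H2-K1 and H2-D1 in log2 CPM (prior count 2) among genes of at least 5 CPM. Names and positions come from GENCODE on GRCm39. Promoters come from RefSeq's table for GRCm38.p6.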

Additional observations from a re-analysis of the deposited data

Results flagged for a closer look

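In groups of 5, a library was marked when its gap to the nearest other, divided by the range of its group, was above 0.71. Of 26 groups of values examined 3 were marked, and chance alone marks about 1 in 20 where values are normally distributed. The groups share libraries and genes, and some hold counts near 0, such as H2-T23, so that rate may not hold here. B2m was 195 CPM in replicate 1 of 5XFAD, with the next library at 122 CPM (gap over range 0.826). H2-D1 was 45.9 CPM in the same library, with the next at 32.2 CPM (0.757). H2-T23 was 1.84 CPM in replicate 3 of 5XFAD;Neu cKO, with the next at 0.287 CPM (0.844).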

How the results depend on the processing

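The 9 genes had 0 calls in the 18 alternatives, of which DESeq2 gave an adjusted p for 3 of the 9 only. The count of all genes called, 42, became 73 with DESeq2, 103 with no filter on low counts, 112 with the replicate number as a block, 91 with the mt-Nd3 split as a covariate (chosen after seeing the data), and 26 to 72 with a library left out (26 without replicate 2 of 5XFAD, 27 without replicate 4 or 5 of 5XFAD;Neu cKO, 72 without replicate 1 of 5XFAD;Neu cKO). The causes were not tested. Over all alternatives B2m ran from -0.39 to -0.14 (adjusted p from 0.165 to 0.86, edgeR or DESeq2). Directions turned with 1 library left out for 5 results, none past a threshold. The log2 ratio of H2-K1 to H2-D1 ranged from -0.042 to 0.18 (-0.042 without replicate 3 of 5XFAD;Neu cKO), and that of immunoproteasome to constitutive subunits from -0.15 to 0.014 (0.014 without replicate 1 of 5XFAD). The log2 fold change of H2-K1 ranged from -0.263 to 0.048, with 0.046 without replicate 2 of 5XFAD;Neu cKO, that of Erap1 from -0.347 to 0.033 (without replicate 2 of 5XFAD) and that of Nlrc5 from -0.319 (without replicate 4 of 5XFAD;Neu cKO) to 1.179. The log2 difference in the ratio of B2m to H2-K1 plus H2-D1 ranged from -0.254 to -0.063 with a library left out, and was -0.274 with all the listed heavy chain genes as the denominator. Same-numbered libraries did not deviate together (correlations of -0.011 to 0.0186, with 0 libraries closest to their own number), so the numbers were not taken to pair the mice. With the replicate block B2m was at -0.29 (adjusted p = 0.269, edgeR) and Rfx5 at 0.98 (adjusted p = 0.0303, edgeR). For the 3 ratios the block could not move the mean difference, since each group holds every replicate number. Exact sign-flip p were 0.438, 0.75 and 0.812. With so few pairs that test cannot give a p under 0.05, so it does not decide whether the ratios depend on the block. filterByExpr kept 7 of the 9 genes, without H2-T23 and Nlrc5. Depth limits H2-T23, Nlrc5 and Tap1 most, which had no read in 2, 5 and 1 of the 10 libraries.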
